A study of Bos taurus with 24 samples.

Results

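The nuclear genes for subunits of respiratory complexes II, III and IV and of the ATP synthase (complex V) were followed in subcutaneous fat of beef cows, together with somatic cytochrome c and the ATP synthase inhibitor ATP5IF1. The list holds 41 genes, each taken from the array row that carries its symbol alone, and from the brightest such row over the 24 arrays where a gene had several. A row, called a cluster here, summarises the probes of a gene or predicted gene. Of the 41 genes, 40 had a cluster, among 18444 gene symbols and 24997 clusters tested. They comprised 4 genes of complex II, 9 of complex III, 10 of complex IV, 15 of complex V, CYCS and ATP5IF1, and COX6B1 was not analysed here.

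The animals were non-pregnant crossbred beef cows, 5 years old, whose calves had been weaned, and all received the same ration. Each was biopsied in the fat pad between hooks and pins on day 105 of feed restriction, on the left side, and on day 49 of ad libitum feeding, on the right side. The 6 high gain cows (H1 to H6) and the 6 low gain cows (L1 to L6) were the extremes of body weight gain in the ad libitum period, and the high gain cows also ate more in it. Hence 4 groups of 6 arrays were compared, with both diets measured in every cow. Diet cannot be told apart from biopsy side, day and feeding period. Mean RNA integrity in the methods was higher at ad libitum feeding, and its part in the results was not tested.

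The respiratory chain of the inner mitochondrial membrane passes electrons from fuel oxidation to oxygen. Complex II, succinate dehydrogenase, is also an enzyme of the TCA cycle and hands its electrons to ubiquinone. Complex III passes them to cytochrome c and complex IV to oxygen, while complexes III and IV pump the protons that drive the rotary ATP synthase. Complexes III, IV and V combine subunits encoded in the nucleus with subunits encoded in mitochondrial DNA, whereas complex II is encoded wholly in the nucleus. In fat cells the chain supplies the ATP used for making and breaking down triglyceride.

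Levels are given as log2 signal above the median cluster of the same array, so 0 is the median cluster and a difference of 1 is a doubling. Array medians on the deposited scale were 8.26 to 8.34 at restriction and 7.83 to 7.94 at ad libitum feeding, and arrays of different cows of a group correlated at 0.961 to 0.986. The labelled tissue was checked with 13 adipocyte markers, whose mean level was 8.20 to 9.93 over all arrays. Markers of skeletal muscle, a possible admixture of a biopsy, had mean levels of at most 0.63. Changes are from limma with the cow as a block, and "higher" or "lower" means an adjusted p under 0.05 over all clusters. In bulk tissue, fewer cells of a type and less RNA per cell cannot be told apart. Each array stands for 1 biopsy of 1 cow.

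Nearly all of the subunit genes rose from restriction to ad libitum feeding, in both gain groups. In the high gain cows 39 of 40 were higher and 0 were lower, beside 20.2% of all clusters that were higher. The median log2 change was 2.06 (4.17-fold), with a range from 0.38 to 3.77, against a median of -0.01 over all clusters. Among low gain cows 38 of 40 were higher and 0 were lower, beside 19.9% of all clusters. There the median change was 1.74 (3.33-fold), with a range from -0.03 to 2.95, against 0.02 over all clusters. UQCRFS1 was not called in the low gain cows. COX6C was not called in either gain group, but its row is dim, and it is uncertain that this row measures the gene: a brighter cluster that the tables of the study list as COX6C rose in both groups.

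The 6 ad libitum values lay above all 6 restriction values for 36 of the 40 genes in the high gain cows. That held for 9.38% of all clusters and for 398 of the 1250 brightest. In the low gain cows it held for 21 genes, beside 8.99% of all clusters and 412 of the 1250 brightest. Within cows, 37 genes were higher in 6 of 6 high gain cows and 33 in 6 of 6 low gain cows. Standard errors of the changes ran from 0.11 to 0.41.

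**Figure D1:**
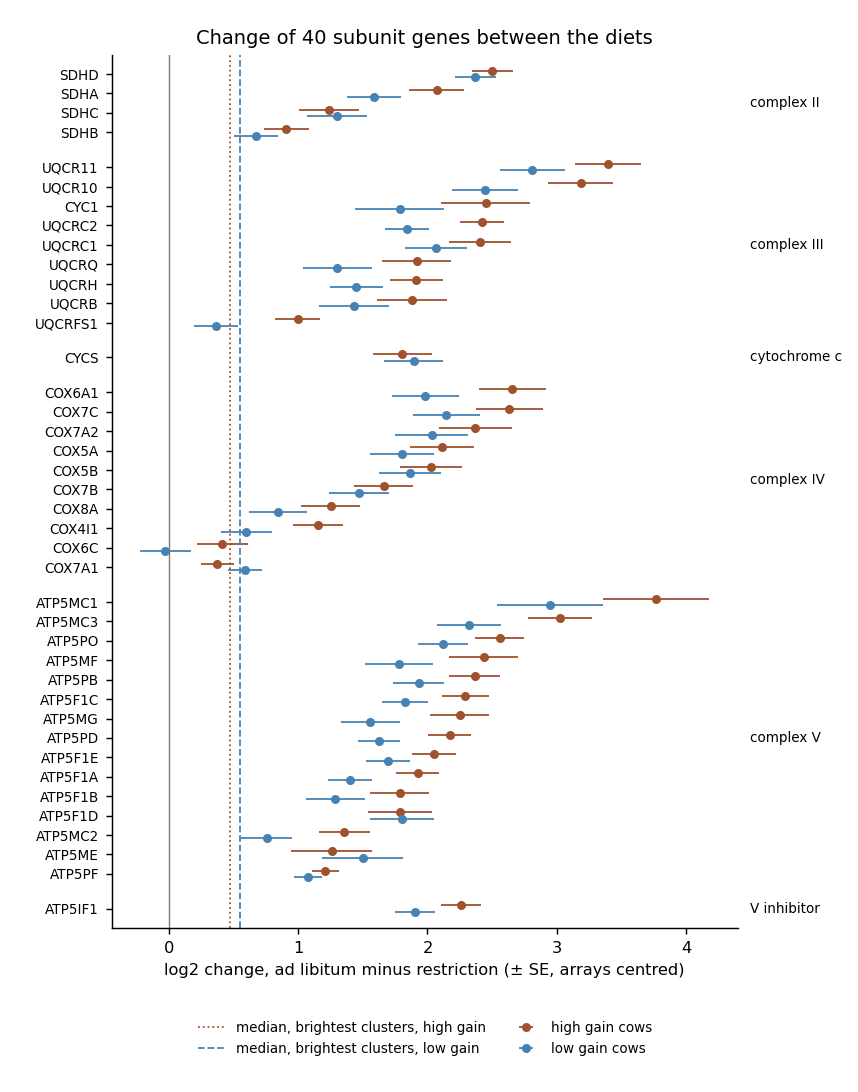
Log2 change from restriction to ad libitum feeding for each of the 40 genes, ordered by complex and by the change in the high gain cows, with points for the estimate and bars for its standard error (6 cows in each gain group). The vertical lines mark the median change of the 1250 brightest clusters, 0.47 for high gain cows and 0.56 for low gain cows. ATP5MC1 lies farthest right at 3.77 and 2.95. Farthest left are COX7A1 in the high gain cows, at 0.38, and COX6C in the low gain cows, at -0.03.

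Complex II has a catalytic part that faces the matrix and a pair of membrane anchors. SDHD, one of the anchors, had levels of 4.20 to 4.59 (median 4.39) at restriction and 6.59 to 7.32 (median 6.81) at ad libitum feeding in the high gain cows. For low gain cows, it went from 4.17 to 4.95 (median 4.51) to 6.16 to 7.25 (median 7.00). The diets did not overlap in either gain group, and SDHD rose by 2.50 (5.66-fold, SE 0.16, adjusted p = 3.09e-07) and 2.37 (SE 0.16, adjusted p = 8.86e-07). No other gene of complex II rose as far.

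SDHA, the flavoprotein that oxidizes succinate, had 3.65 to 4.73 (median 4.59) at restriction and 5.90 to 6.98 (median 6.67) at ad libitum feeding in the high gain cows. On the low gain side SDHA had 4.56 to 5.72 (median 4.85) and 5.86 to 7.35 (median 6.52). The diets were again apart in both groups, with rises of 2.07 (SE 0.21, adjusted p = 7.91e-06) and 1.59 (SE 0.21, adjusted p = 9.00e-05). SDHC, the other anchor, rose by 1.24 (SE 0.23, adjusted p = 9.49e-04) in the high gain cows, from 2.61 to 3.94 (median 3.20) to 4.10 to 5.04 (median 4.30). Within the low gain group SDHC rose by 1.30 (SE 0.23, adjusted p = 7.73e-04), from 2.91 to 4.83 (median 3.67) to 4.63 to 5.35 (median 5.13), and only cow L4 at restriction reached into the ad libitum values.

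SDHB, the iron-sulfur subunit that carries electrons from SDHA to the anchors, changed least among the genes of complex II. It went from 6.12 to 6.91 (median 6.51) to 7.02 to 7.98 (median 7.40) in the high gain cows, a rise of 0.91 (SE 0.17, adjusted p = 0.00100). In the low gain cows it went from 6.22 to 7.23 (median 6.63) to 7.11 to 7.66 (median 7.40), a rise of 0.68 (SE 0.17, adjusted p = 0.00772). On the deposited scale, without centring, the low gain change of SDHB was 0.22 (adjusted p = 0.26), which ends that call. Quantile normalization ended the calls in both groups, with changes of 0.38 (adjusted p = 0.0878) and 0.04 (adjusted p = 0.88).

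In complex III the small subunits UQCR11 and UQCR10 moved farthest. UQCR11 had levels of 3.16 to 3.52 (median 3.47) at restriction and 6.20 to 7.49 (median 6.79) at ad libitum feeding in the high gain cows. Among low gain cows UQCR11 had 3.28 to 5.13 (median 3.82) and 6.16 to 7.56 (median 6.59). The diets were more than 1 log2 unit apart in both groups, and UQCR11 rose by 3.39 (10.5-fold, SE 0.25, adjusted p = 7.66e-07) and 2.81 (7.02-fold, SE 0.25, adjusted p = 7.05e-06). UQCR10, another small subunit, rose by 3.18 (SE 0.25, adjusted p = 1.25e-06), from 3.89 to 4.82 (median 4.56) to 6.92 to 8.73 (median 7.61) in the high gain cows. For low gain cows, UQCR10 rose by 2.44 (SE 0.25, adjusted p = 1.66e-05), from 4.37 to 5.94 (median 5.01) to 6.75 to 8.30 (median 7.39).

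The large core proteins UQCRC1 and UQCRC2 and the electron carrier CYC1, cytochrome c1, rose by 2.40 to 2.45 in the high gain cows. For UQCRC2 the levels were 4.59 to 5.04 (median 4.81) at restriction and 6.59 to 7.94 (median 7.24) at ad libitum feeding, a rise of 2.42 (SE 0.17, adjusted p = 5.39e-07). On the low gain side UQCRC2 had 4.75 to 5.72 (median 5.13) and 6.46 to 7.49 (median 6.97), a rise of 1.84 (SE 0.17, adjusted p = 8.45e-06). UQCRB, UQCRQ and UQCRH, further small subunits, rose by 1.88 to 1.92 in high gain cows and by 1.30 to 1.45 in low gain cows.

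UQCRFS1, the Rieske iron-sulfur protein that passes electrons to cytochrome c1, had the smallest change in complex III. In the high gain cows it rose by 1.00 (SE 0.17, adjusted p = 5.35e-04), from 2.83 to 3.36 (median 3.11) to 3.64 to 4.46 (median 4.12), without overlap of the diets. Within the low gain group it had 3.10 to 4.28 (median 3.68) at restriction and 3.46 to 4.44 (median 4.10) at ad libitum feeding, overlapping ranges. That change was 0.37 (SE 0.17, adjusted p = 0.11), positive in 4 of 6 cows, and turned to -0.09 on the deposited scale. Without cow L4 it was 0.49 (adjusted p = 0.0493).

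Cytochrome c, which shuttles single electrons from complex III to complex IV, rose to a like extent in both groups. CYCS had -0.55 to 0.65 (median -0.18) at restriction and 1.13 to 2.29 (median 1.71) at ad libitum feeding in the high gain cows, and -0.22 to 0.28 (median 0.08) and 1.10 to 2.73 (median 2.22) in the low gain cows. The diets did not overlap, and the rises were 1.80 (SE 0.23, adjusted p = 4.72e-05) and 1.90 (SE 0.23, adjusted p = 4.65e-05).

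Complex IV, cytochrome c oxidase, held both large rises and the members nearest to 0. COX6A1, the isoform of subunit 6A found outside heart and skeletal muscle, had 3.42 to 4.59 (median 3.75) at restriction and 5.77 to 7.16 (median 6.56) at ad libitum feeding in the high gain cows. In the low gain cows COX6A1 had 3.63 to 6.34 (median 4.60) and 6.02 to 7.54 (median 6.46). The high gain diets were apart, whereas in the low gain cows L4, at 6.34 in restriction, overlapped the ad libitum values. COX6A1 rose by 2.66 (SE 0.26, adjusted p = 6.08e-06) and 1.98 (SE 0.26, adjusted p = 8.46e-05).

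COX7C, a small structural subunit, rose by 2.63 (SE 0.26, adjusted p = 6.21e-06) in the high gain cows, from 7.64 to 7.87 (median 7.76) to 10.02 to 11.13 (median 10.23). Among low gain cows COX7C rose by 2.15 (SE 0.26, adjusted p = 4.65e-05), from 7.52 to 9.27 (median 8.00) to 9.41 to 10.94 (median 10.41). COX5A, which lies on the matrix side, rose by 2.11 (SE 0.25, adjusted p = 2.36e-05), from 1.49 to 2.62 (median 1.57) to 3.46 to 4.60 (median 3.92) in the high gain cows. For low gain cows, COX5A rose by 1.80 (SE 0.25, adjusted p = 1.15e-04), from 1.76 to 3.13 (median 2.14) to 3.60 to 4.58 (median 4.19). All of these pairs of ranges were apart.

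Subunit 7A comes in a heart and muscle isoform, COX7A1, and in COX7A2, the isoform of most other tissues. COX7A2 had 3.42 to 3.73 (median 3.49) at restriction and 5.41 to 6.54 (median 5.83) at ad libitum feeding in the high gain cows, and 3.26 to 5.03 (median 3.58) and 4.86 to 6.97 (median 5.73) in the low gain cows. It rose by 2.37 (5.17-fold, SE 0.28, adjusted p = 2.74e-05) and 2.03 (4.09-fold, SE 0.28, adjusted p = 1.25e-04). COX7A1 had 0.12 to 0.78 (median 0.55) and 0.38 to 1.11 (median 0.95) in the high gain cows, and 0.16 to 0.92 (median 0.43) and 0.61 to 1.78 (median 0.99) in the low gain cows. Its ranges overlapped in both groups. The COX7A1 row is dim, with mean deposited signals of 8.73 to 8.94 over the 4 groups, against 8.36 to 8.84 for the COX6C row.

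COX7A1 passed the test with small rises of 0.38 (1.30-fold, SE 0.13, adjusted p = 0.0338) and 0.59 (1.51-fold, SE 0.13, adjusted p = 0.00325), which on the deposited scale were -0.04 and 0.14, both without a call. The high gain call was also lost without H1, H4, H5 or H6 (adjusted p = 0.0589 to 0.119), and without the cow as a block (adjusted p = 0.11). The difference in change between the isoforms was not tested. The row named COX6C, a structural subunit, had 0.41 (SE 0.20, adjusted p = 0.11) in the high gain cows, with levels of -0.25 to 0.81 (median 0.28) and 0.19 to 1.08 (median 0.69). On the low gain side COX6C had -0.03 (SE 0.20, adjusted p = 0.93), with -0.05 to 1.04 (median 0.60) and 0.08 to 1.05 (median 0.55). On the deposited scale its changes were 0.00 and -0.48, and the latter was called lower (adjusted p = 0.0470).

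The remaining subunits of complex IV lay between. COX5B, which holds a zinc ion, rose by 2.03 and 1.86, and COX7B by 1.66 and 1.47. COX8A, at 1.25 and 0.85, and COX4I1, the common isoform of the regulatory subunit 4, at 1.15 and 0.60, were higher in both groups. The low gain calls of COX8A and COX4I1 were lost on the deposited scale (adjusted p = 0.14 and 0.52), and that of COX4I1 also without L2, L3, L5 or L6 (adjusted p = 0.0502 to 0.106).

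The ring of subunit c, through which protons turn the ATP synthase, is encoded by the genes ATP5MC1, ATP5MC2 and ATP5MC3, whose proteins have the same mature form in mammals. ATP5MC1 had 0.45 to 2.09 (median 0.80) at restriction and 4.17 to 6.20 (median 4.61) at ad libitum feeding in the high gain cows. Within the low gain group it had 0.80 to 3.12 (median 1.32) and 2.80 to 5.94 (median 4.78). Only cow L4 at restriction, at 3.12, and cow L1 at ad libitum feeding, at 2.80, overlapped. With rises of 3.77 (13.6-fold, SE 0.41, adjusted p = 1.34e-05) and 2.95 (7.70-fold, SE 0.41, adjusted p = 1.33e-04), ATP5MC1 had the largest change of the 40 genes in both groups.

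ATP5MC3 followed with 3.02 (SE 0.25, adjusted p = 1.59e-06) in the high gain cows, from 2.78 to 3.71 (median 3.14) to 5.60 to 7.10 (median 6.06). In the low gain cows ATP5MC3 rose by 2.32 (SE 0.25, adjusted p = 2.00e-05), from 2.97 to 4.93 (median 3.55) to 5.19 to 6.86 (median 5.98). ATP5MC2 rose by 1.36 (2.56-fold, SE 0.20, adjusted p = 1.54e-04) in the high gain cows, from 2.99 to 4.07 (median 3.71) to 4.73 to 5.42 (median 5.01). Among low gain cows ATP5MC2 rose by 0.76 (1.69-fold, SE 0.20, adjusted p = 0.00945), from 3.59 to 5.07 (median 3.84) to 4.64 to 5.12 (median 4.72), and on the deposited scale this was 0.31 without a call (adjusted p = 0.21). Thus the c ring genes spanned most of the range of complex V, although the differences among them were not tested.

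**Figure D2:**
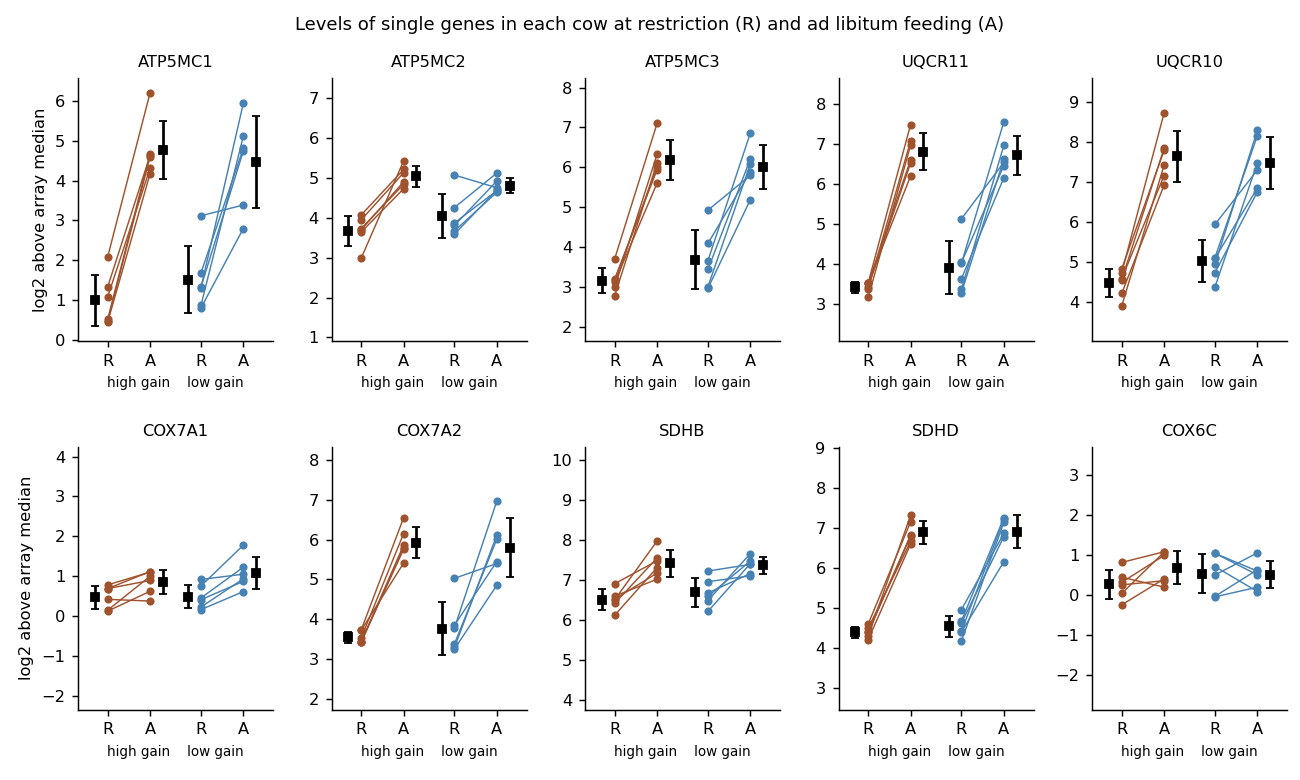
Levels (log2 above the array median) of 10 genes in each cow at restriction (R) and ad libitum feeding (A), with lines joining the samples of a cow and squares with bars for the group mean and SD (6 cows). Every panel spans the same number of log2 units. The lines are steep for ATP5MC1, ATP5MC3, UQCR11, UQCR10, COX7A2 and SDHD, shallower for ATP5MC2 and SDHB, and nearly flat for COX7A1 and COX6C.

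The peripheral stalk holds the catalytic head of the ATP synthase against rotation. ATP5PO, which joins the stalk to the head, had 4.93 to 5.33 (median 5.13) at restriction and 7.26 to 8.57 (median 7.53) at ad libitum feeding in the high gain cows, and 4.68 to 5.97 (median 5.38) and 6.80 to 7.88 (median 7.56) in the low gain cows. The diets were apart, with rises of 2.56 (SE 0.19, adjusted p = 8.60e-07) and 2.12 (SE 0.19, adjusted p = 7.63e-06). ATP5PD, subunit d of the stalk, rose by 2.17 (SE 0.16, adjusted p = 8.75e-07) in the high gain cows, from 5.24 to 5.49 (median 5.46) to 7.29 to 8.12 (median 7.40). For low gain cows, ATP5PD rose by 1.62 (SE 0.16, adjusted p = 1.46e-05), from 5.55 to 6.11 (median 5.75) to 6.50 to 7.85 (median 7.49).

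ATP5PB, subunit b of the same stalk, rose by 2.37 and 1.93. ATP5PF, coupling factor 6 of the stalk, rose less, by 1.21 (SE 0.11, adjusted p = 2.52e-06), from 6.13 to 6.50 (median 6.30) to 7.33 to 7.76 (median 7.51) in the high gain cows. On the low gain side ATP5PF rose by 1.08 (SE 0.11, adjusted p = 1.28e-05), from 6.46 to 6.79 (median 6.59) to 7.33 to 7.95 (median 7.76). Its standard error was the smallest of the 40 genes, and its diets were apart in both groups.

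In the head and the central shaft, ATP5F1C, the gamma subunit that rotates inside the head, had 4.42 to 4.98 (median 4.56) and 6.44 to 7.64 (median 6.78) in the high gain cows, and 4.64 to 5.43 (median 4.94) and 6.37 to 7.26 (median 6.85) in the low gain cows. The rises of ATP5F1C were 2.29 (SE 0.18, adjusted p = 1.25e-06) and 1.83 (SE 0.18, adjusted p = 1.35e-05), again without overlap. ATP5F1A and the catalytic ATP5F1B rose by 1.93 and 1.79 in high gain cows and by 1.40 and 1.29 in low gain cows. With quantile normalization ATP5F1B had 0.60 in the low gain cows, which ends that call (adjusted p = 0.0554). The shaft subunits ATP5F1D and ATP5F1E rose by 1.78 and 2.05, and by 1.80 and 1.70.

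Subunits e, f and g sit in the membrane and take part in joining ATP synthases into dimers. ATP5MF rose by 2.43 and 1.78. ATP5MG rose by 2.25 (SE 0.23, adjusted p = 7.91e-06) in the high gain cows, from 7.97 to 8.40 (median 8.09) to 9.55 to 10.77 (median 10.51). Within the low gain group ATP5MG rose by 1.56 (SE 0.23, adjusted p = 1.90e-04), from 7.84 to 9.26 (median 8.92) to 9.66 to 10.81 (median 10.24). ATP5ME was higher by 1.26 (SE 0.32, adjusted p = 0.00633) and 1.50 (SE 0.32, adjusted p = 0.00244), with overlapping levels of -1.73 to -0.09 (median -0.83) and -0.37 to 1.16 (median 0.36), and of -1.38 to 0.61 (median -0.70) and -0.10 to 1.99 (median 0.91). The ATP5ME row is dim, and a brighter cluster under an old symbol of the gene rose less.

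ATP5IF1, which stops the ATP synthase from running backwards and splitting ATP, rose with the subunits. It had 5.60 to 6.24 (median 5.71) at restriction and 7.76 to 8.42 (median 8.09) at ad libitum feeding in the high gain cows, and 5.55 to 6.90 (median 6.08) and 7.74 to 8.47 (median 7.91) in the low gain cows. The diets were apart, and the rises were 2.26 (SE 0.16, adjusted p = 4.01e-07) and 1.90 (SE 0.16, adjusted p = 3.08e-06).

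COX7B, COX7C and ATP5F1E had more than 1 cluster. The second cluster of COX7C rose by 1.86 and 1.57, and the other clusters of COX7B rose by 2.15 and 2.05 and, for the dimmest, by 0.53 and 0.50. The dimmer cluster of ATP5F1E had 0.30 (adjusted p = 0.18) and 0.07 (adjusted p = 0.78), without a call. A pair of further clusters was chosen after their values were seen. The cluster named ATP5I, an old symbol of ATP5ME, was brighter than the ATP5ME row. It was higher by 0.45 and 0.67, against 1.26 and 1.50 for the ATP5ME row. The cluster LOC782486, which the tables of the study list as COX6C, was higher by 2.73 (SE 0.38, adjusted p = 1.12e-04) and 1.70 (SE 0.38, adjusted p = 0.00390). With these in place of the ATP5ME and COX6C clusters, 40 and 39 of 40 genes were higher.

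By complex, every gene of complexes II, III and V was higher in the high gain cows, and 9 of 10 in complex IV. The median changes there were 1.66 in complex II, 2.40 in complex III, 1.84 in complex IV and 2.17 in complex V. In the low gain cows 4 of 4, 8 of 9, 9 of 10 and 15 of 15 genes were higher, with medians of 1.45, 1.79, 1.64 and 1.70. The spread within a complex was wider than the distance between their medians: complex III ran from 1.00 to 3.39 and complex V from 1.21 to 3.77 in the high gain cows.

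Averaged over all 40 genes, the change was 2.01 ± 0.28 (SD, n = 6) in the high gain cows, from 1.75 in H5 to 2.43 in H2. It was 1.60 ± 0.65 (SD, n = 6) in the low gain cows, from 0.65 in L4 to 2.19 in L2. Every cow moved upward in each of the 4 complexes on centred arrays, whereas on the deposited scale complex IV of L4 changed by -0.22. Complex III had the largest mean change in 8 of 12 cows, complex V in 3 and complex II in 1, and the smallest was that of complex IV in 7 cows and of complex II in 5. In L4 complex IV changed by 0.27 and 7 of the 40 genes were lower at ad libitum feeding, against at most 2 genes in any other cow. The order of the complexes is a description over 12 cows, with different genes in each, and was not tested. The complex IV means include the dim row named COX6C, which may not measure the gene, and lack COX6B1.

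**Figure D3:**
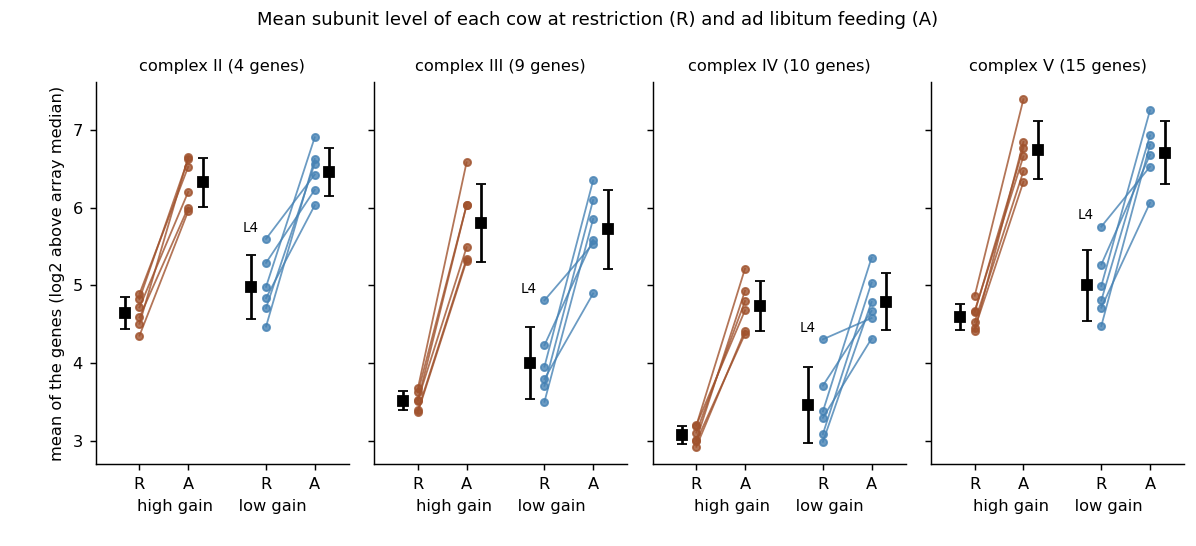
Mean level (log2 above the array median) of the genes of each complex in each cow at restriction (R) and ad libitum feeding (A), with lines joining the samples of a cow and squares with bars for the group mean and SD (6 cows). All lines rise on this scale. Cow L4 starts highest of the low gain cows in every panel and has the flattest line for complex IV, a change of 0.27.

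The subunit genes are bright on the array, and bright clusters in general were higher at ad libitum feeding. Of the 40 genes, 19 were among the 1250 brightest clusters and 39 lay above the median cluster. Among those 1250 clusters 51.8% were higher in high gain cows and 55.1% in low gain cows, with median changes of 0.47 and 0.56. In that brightest bin the subunit genes had medians of 2.25 and 1.70, and the 10 genes in the next bin had 2.39 and 1.88 beside 0.17 and 0.29 for all its clusters. SDHB (0.68) and COX4I1 (0.60), of the brightest bin, rose in low gain cows by little more than its median. The part of brightness in the change was not tested further. No gene reached the end of the scale, at 19.93, the highest value being 18.99.

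On the deposited scale, where the median of all clusters changed by -0.42 and -0.43, 38 and 33 subunit genes were higher and 0 and 1 were lower. Over all clusters that scale turned the balance in high gain cows from 5049 higher and 4527 lower to 1894 higher and 13663 lower, and in low gain cows from 4970 and 3779 to 1608 and 13981. The median change of the 40 genes was then 1.65 and 1.29.

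**Figure D4:**
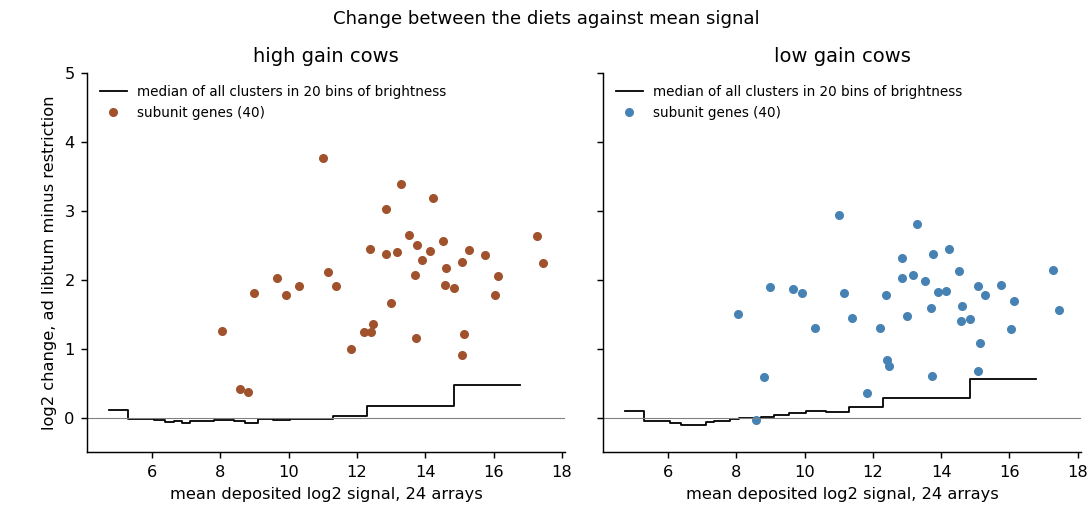
Log2 change from restriction to ad libitum feeding against the mean deposited log2 signal of the 24 arrays, for the 40 genes (points) and for the median of all clusters in 20 bins of equal size by signal (black steps), in the high gain (left) and low gain cows (right). The brightest bin has medians of 0.47 and 0.56, and all but a few points lie well above the steps, with COX6C on or near them. In the low gain cows SDHB (0.68) and COX4I1 (0.60) are close to the median of the brightest bin.

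Whether the rise differed between the gain groups was asked of the difference of the changes. It passed the test for 0 of the 40 genes, beside 0.02% of all clusters (5 clusters). An unadjusted p under 0.05 was found for 5 genes (12.5%), beside 9.27% of all clusters and 16.4% of the brightest. The change was larger in the high gain cows for 35 of the 40 genes, with a median difference of 0.45, against 48.4% of all clusters and 44.4% of the brightest. The smallest p-values were those of UQCRFS1 at 0.63 (SE 0.24, adjusted p = 0.47), UQCRC2 at 0.58 (SE 0.24, adjusted p = 0.49) and ATP5PD at 0.55 (SE 0.23, adjusted p = 0.50). For ATP5MC1 the difference was 0.82 with SE 0.58, and for SDHD 0.13 with SE 0.22. The median difference was 0.29 without L4 and 0.34 to 0.58 without any other cow. The count of 5 genes depended on single cows: it was 0 without H2 or L4, 1 without H3, H4 or L3, 2 without L1, 8 without L6, 9 without L5 and 10 without L2.

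Across the 40 genes the changes of the 2 gain groups had r = 0.937 and rho = 0.908, beside r = 0.834 over all clusters, as a description of genes that share their arrays. Genes that moved far in one group thus moved far in the other, ATP5MC1 and UQCR11 in front and COX7A1, UQCRFS1 and the dim COX6C row at the back.

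At restriction the high gain cows had lower levels of the subunit genes on average than the low gain cows, but no single gene passed the test. The difference, high minus low, was negative for 40 of 40 genes, against 50.7% of all clusters and 48.0% of the brightest, with a median of -0.40 and a range from -0.81 to -0.01. Over all clusters 0% were called (0 of 24997, with 2307 at an unadjusted p under 0.05). For the genes here 15 of 40 had an unadjusted p under 0.05, against 9.23% of all clusters and 16.9% of the brightest. The genes of a complex are measured in the same biopsies, so these counts are not independent of each other.

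ATP5PD had the smallest p, with 5.24 to 5.49 in high gain cows and 5.55 to 6.11 in low gain cows, ranges that do not overlap, and a difference of -0.37 (SE 0.11, adjusted p = 0.43). UQCRFS1 differed by -0.60 (SE 0.20, adjusted p = 0.44), with medians of 3.11 and 3.68. ATP5MG differed by -0.57 (SE 0.20, adjusted p = 0.45), with medians of 8.09 and 8.92. COX4I1 was the other gene without overlap, just so, at 4.77 to 5.18 against 5.18 to 6.43. Of all 24997 clusters, 51 had no overlap in this direction and 64 in the other.

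Among the low gain cows, L4 stood apart. It was the highest of the low gain cows at restriction in 34 of the 40 genes, with a mean level of 5.06 against 3.82 to 4.54 in the other low gain cows and 3.75 to 4.06 in the high gain cows. Without L4 the median difference was -0.25 and 38 of 40 genes were negative, whereas leaving out any other cow gave medians of -0.47 to -0.35 and 39 or 40 negative genes. The count of 15 genes at an unadjusted p under 0.05 fell to 6 without L4, and also to 7 without L3 or H5, 8 without H4 and 9 without H1, and it was 23 without L6. Over the low gain cows the median SD of the genes at restriction was 0.50, against 0.30 in the high gain cows, and the low gain SD was the larger for 36 of 40 genes, beside 48.7% of all clusters.

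At ad libitum feeding the gain groups lay close together. The difference was positive for 24 and negative for 16 genes, with a median of 0.03, and 0 were called, beside 0% of all clusters (1812 at an unadjusted p under 0.05). The median was -0.08 without L1 and -0.06 without H2. SDHC alone had an unadjusted p under 0.05, at -0.57 (SE 0.19, adjusted p = 0.56), with 4.10 to 5.04 in high gain cows and 4.63 to 5.35 in low gain cows. ATP5MC2 had 0.24 (SE 0.13, adjusted p = 0.76) and ATP5ME -0.53 (SE 0.34, adjusted p = 0.80).

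**Figure D5:**
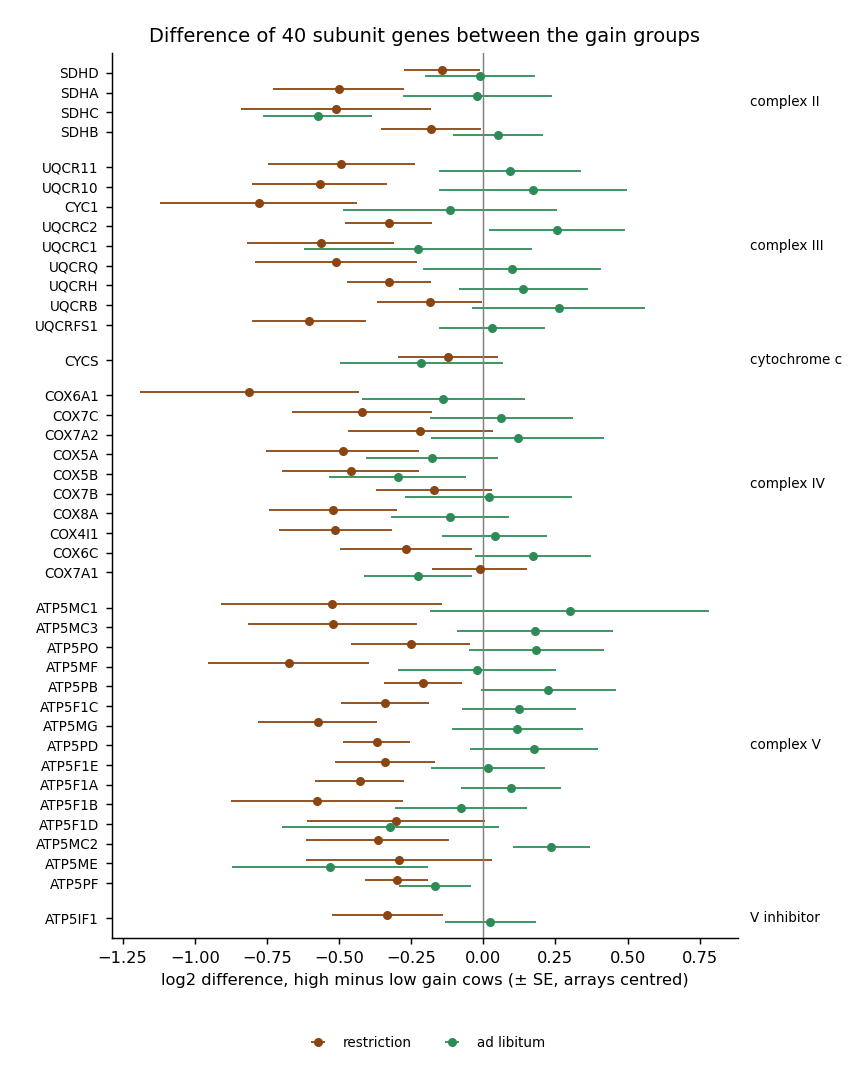
Log2 difference, high minus low gain cows, under restriction (brown) and ad libitum feeding (green) for each of the 40 genes, in the order of the plot of diet changes, with bars for the standard error (6 cows in each group). All brown points lie at or left of 0, from -0.81 to -0.01, whereas green points lie on both sides, and 0 of the differences were called.

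Assembly factors, which insert heme, copper and iron-sulfur groups and put the subunits together, were also followed. Of 38 listed factors 35 were measured, with a median change of 0.61 in high gain cows. There 23 were higher and 2 lower, beside 20.2% of all clusters higher and 4527 of 24997 lower. Among low gain cows 25 were higher and 1 lower, beside 19.9% higher and 3779 of 24997 lower, with a median of 0.55. The difference between factors and subunits was not tested. BCS1L, which loads UQCRFS1 into complex III, rose by 1.12 (SE 0.13, adjusted p = 3.30e-05) and 0.95 (SE 0.13, adjusted p = 1.54e-04), and ATPAF1, a chaperone of the ATP synthase head, by 1.17 and 1.09. COA6, a copper-handling factor of complex IV, went the other way and fell by 1.52 (SE 0.12, adjusted p = 9.20e-07) and 1.41 (SE 0.12, adjusted p = 3.29e-06). CMC1, another factor of complex IV, was lower by -0.52 (adjusted p = 0.00543) in the high gain cows and had -0.21 (adjusted p = 0.22) in the low gain cows. With arrays centred on the 1250 brightest clusters the medians of the factors were 0.08 and -0.09, so that the low gain median turned.

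Among 12 other isoforms and associated subunits, high gain cows had 7 higher and 2 lower, beside 20.2% of all clusters higher and 4527 of 24997 lower. Low gain cows had 5 higher and 1 lower, beside 19.9% higher and 3779 of 24997 lower. ATP5MJ and ATP5MK, small proteins of the ATP synthase membrane part, rose by 3.19 and 2.57 in high gain cows and by 2.56 and 1.74 in low gain cows. NDUFA4, an associated subunit of complex IV, rose by 1.86 and 1.50, and COX7A2L, which joins complexes III and IV, by 1.71 and 1.21. COX7B2 and CYCT, isoforms known from testis, were lower in the high gain cows, by -0.49 and -0.61, COX7B2 also in the low gain cows, by -0.35. COX4I2, COX6A2 and COX6B2, isoforms of lung, muscle and testis, were not called in either group. Of the 6 subunits encoded in mitochondrial DNA 0 had a named cluster, and they were not analysed here.

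Markers of cell types were followed between the diets as well. Over all clusters 20.2% and 19.9% were higher, and 4527 and 3779 of 24997 were lower (high and low gain cows). Of 10 fibroblast and progenitor markers 8 were higher in each gain group, with median changes of 1.99 and 1.49, and their mean level per array was 4.70 to 6.26 at restriction and 6.40 to 7.68 at ad libitum feeding in the high gain cows. For low gain cows, that mean was 4.08 to 5.48 and 5.71 to 7.37. Adipocyte markers were higher in 10 of 13 genes in each group, and 1 was lower in the high gain cows. The adipocyte medians were 0.65 and 0.54, which on centring by the brightest clusters were 0.12 and -0.09. Their mean level was 8.20 to 8.91 and 9.21 to 9.81 in the high gain, and 8.67 to 9.15 and 9.59 to 9.93 in the low gain cows. Of 9 endothelial markers 3 were lower and 0 higher in the high gain cows (median -0.45), and 1 was lower and 3 were higher in the low gain cows (median 0.49, and -0.14 on centring by the brightest clusters). VWF, the von Willebrand factor of vessel walls, fell by 1.75 in the former, and KDR, a VEGF receptor, rose by 1.32 in the latter. Of 10 macrophage markers 2 and 3 were higher (medians -0.05 and 0.05), and of 8 lymphocyte markers 0 and 3 were lower (medians -0.22 and -0.41). Of 10 skeletal muscle markers and of 5 erythrocyte markers 0 were called in either group.

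At restriction, 10 of 10 macrophage markers had a positive difference, high minus low gain (median 0.71, 0 called), with mean levels of 1.27 to 2.20 and 0.52 to 1.39. The 10 fibroblast and progenitor markers were also all positive (median 0.55, 0 called), the endothelial markers in 8 of 9 (median 0.39, 0 called), and the adipocyte markers were negative in 10 of 13 (median -0.25, 0 called). Lymphocyte markers were negative in 8 of 8 (median -0.21) and erythrocyte markers in 5 of 5 (median -0.18, lowest -2.47), with 0 called. At ad libitum feeding, where the subunit genes had a median difference of 0.03, macrophage markers were again positive in 10 of 10 (median 0.44), fibroblast and progenitor markers in 9 of 10 (median 0.83), and adipocyte markers were negative in 13 of 13 (median -0.15), with 0 called. The part of these cells in the difference of the subunit genes was not tested. Of 8 brown and beige adipocyte markers 5 and 4 were higher between the diets and 0 were lower, beside 20.2% and 19.9% of all clusters higher. Their median changes were 0.46 and 0.39, and -0.07 and -0.24 on centring by the brightest clusters. UCP1, the uncoupling protein of brown fat, was higher by 0.94 (SE 0.10, adjusted p = 9.11e-06) and 0.60 (SE 0.10, adjusted p = 3.71e-04). Its mean deposited signal of 5.54 lies in the dimmest of 20 bins of clusters by signal (3.85 to 5.64). The low gain change of UCP1 was -0.03 on centring by the brightest clusters.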

How the data were processed

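RNA of 24 biopsies was hybridised to 24 Affymetrix Bovine 1.1ST arrays. The authors deposited log2 signals from Affymetrix Expression Console, after GC correction, signal space transformation and RMA (version and genome build not given in the sources used here). Whether both diets were normalised together is not stated. The number of arrays limits the precision. Titles number the samples of a cow 1 and 2, read as restriction and ad libitum. Recomputed group averages matched the study's tables within 0.01 in 1998 of 1998 clusters compared for each diet comparison. The study reports more genes than these for both. Of 26773 clusters, 1776 with identifiers below the lowest named one were left out, and 5822 of the rest have no annotation.

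Each array was centred on its median. limma 3.58.1 in R 4.3.3 (lmFit, eBayes, two-sided) was fitted to all 24 arrays with the cow as a block for diet, and to the 12 arrays of a diet for gain, with Benjamini-Hochberg adjustment over 24997 clusters. The methods name no block. It was used because both samples come from 1 animal: their deviations correlated at a median of 0.19 (high gain) and 0.10 (low gain), against -0.05 and -0.02 (other cows). The fit was tested on data simulated on the centred scale with few clusters changed, a test that cannot bear on the centring. Members and lists were chosen with earlier results of these data known. Full values are given for the 3 smallest p and the extremes of each complex, uncalled members, the 3 smallest p of the other comparisons, and the subunit c, COX7A, CYCS and ATP5IF1 genes. Promoter and protein sequences were not used here.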

Additional observations from a re-analysis of the deposited data

Results flagged for a closer look

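In 190 groups of 6 values (the levels of a gene in a group, or the levels or changes of the mean over a complex or over all the genes in a gain group), 8 held a value whose gap to its nearest neighbour, relative to the range, passed Dixon's critical value, and chance alone gives this in about 1 of 20 groups. In cow L4 at restriction, COX4I1 was at 6.43 (the other low gain cows at 5.18 to 5.41) and COX7A2 at 5.03 (others 3.26 to 3.85). In cow H2 at ad libitum feeding, ATP5MC1 was at 6.20 (the other high gain cows at 4.17 to 4.67) and ATP5F1A at 7.99 (others 7.06 to 7.38). UQCRQ of H2 at restriction was at 1.83 (others 0.83 to 1.20). SDHA of H5 at restriction was at 3.65 (others 4.35 to 4.73). UQCRH of L1 at ad libitum feeding was at 3.08 (others 4.02 to 4.55), and COX5B of L2 at ad libitum feeding was at 3.75 (others 2.26 to 2.70). All are levels in log2 units above the array median, and their cause was not tested.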

How the results depend on the processing

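The number of genes called stayed within 1.5 times the reported count under every alternative run, for all 5 comparisons. It was 30 to 40 for the high gain diet comparison and 26 to 39 for that of the low gain cows. The lowest counts came from the methods' one-way test on the deposited scale. Its rule is an unadjusted p under 0.05 with a change of more than 2-fold, in place of the adjusted p. In the paired design, the cow was a replicate block: without the replicate block 38 and 38 genes were called, and the high gain call of COX7A1 was lost (adjusted p = 0.11). Leaving out a cow gave 38 to 39 and 37 to 39. Scaling mattered more for size. The complex medians in the high gain cows were 1.24, 1.99, 1.43 and 1.76 (complexes II, III, IV and V) on the deposited scale, and 1.13, 1.88, 1.31 and 1.64 when centred on the brightest clusters, which gave 0.82, 1.15, 1.01 and 1.06 in the low gain cows. Quantile normalization gave 1.70 for complex V in the high gain cows. On the deposited scale COX7A1 of high gain cows turned to -0.0376 and UQCRFS1 of low gain cows to -0.0864. Centred on the brightest clusters, COX6C (-0.12) and COX7A1 (-0.15) in the high gain cows and UQCRFS1 (-0.27), COX4I1 (-0.0300) and COX7A1 (-0.0399) in the low gain cows were negative, and COX6C was called lower in the low gain cows (-0.66, adjusted p = 0.00564). COX6C in the low gain cows ranged from -0.16 to 0.10 on leaving out a cow. Quantile normalization ended the calls of SDHB in both groups and of COX4I1, COX8A, ATP5F1B and ATP5MC2 in the low gain cows (0.12, 0.53, 0.60 and 0.44). The cause of the shifts with scaling was not tested. In comparisons of the gain groups, 6 cows a group and the spread between cows limit what could be called.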
